A study of Mus musculus with 8 samples.

Results

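Maf, Satb1, Zeb1, Zeb2, Npas1 and Npas3 encode transcription factors that act while interneurons of the medial ganglionic eminence (MGE) are generated, migrate and mature. They are 6 of the 17178 genes that could be named on the arrays, and they were taken as every non-control probe whose accession in the array files belongs to one of these symbols. This gave 9 of 41174 probes, with 2 for Maf, 3 for Zeb2 and 1 for each of the other 4 genes. The samples were MGE microdissected from C57BL/6 mouse embryos at E13.5, 4 of them WT and 4 Nkx2-1cKO, each hybridised to its own 1-colour Agilent array. The labels give the WT arrays as Nkx2-1flox/+;Olig2tva-cre- and the mutant arrays as Nkx2-1flox/+;Olig2tva-cre+, so both groups carried a floxed allele in the labels and differed in the Cre. The methods instead name an Nkx2-1f/f strain for making the Nkx2-1cKO and give no genotype for the arrays. On the arrays the Nkx2-1 signal of the mutant group was 1.24% of the WT level, and the genotype itself was not tested. The Cre is expressed from Olig2 regulatory sequence, which is active in progenitors of the ventral telencephalon. Neither the labels nor the methods say whether the samples came from separate embryos or litters, so the p-values measure only the spread between these samples, which may be technical.

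The MGE gives rise to most cortical interneurons that will contain somatostatin or parvalbumin, and NKX2-1 is the homeodomain factor that sets its identity. Neurons leaving the MGE progenitor zone turn on LHX6, and several later regulators act as these cells migrate to the cortex or settle in the striatum. MAF is a large basic leucine zipper factor of MGE-derived cortical interneurons. SATB1 organises chromatin and is needed for the maturation and survival of interneurons, and ZEB2 is a zinc finger homeodomain repressor that helps to direct MGE cells to the cortex. ZEB1 is the close relative of ZEB2, and NPAS1 and NPAS3 are basic helix-loop-helix PAS factors of the ganglionic eminences.

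Values are the log2 of the background-subtracted intensity relative to the 75th percentile of the same array, so 0 is a probe at that percentile, and values are compared only between arrays for the same probe. A probe was called changed at an adjusted p under 0.05 (limma, Benjamini-Hochberg over 31280 tested probes), and a gene is represented by its brightest probe. Nkx2-1 itself fell by 6.34 on the log2 scale in the Nkx2-1cKO (standard error 0.11, adjusted p = 4.77e-09, limma) and every mutant array was below every WT array. On WT replicate 1 the dim probes read high, with a median deviation of 1.18 (log2) from the median of the other arrays in the dimmest 20% of the tested probes, against -0.41 to 0.23 on the other 7 arrays. Results are therefore also given without this array where they rest on it. The arrays lay on 2 slides with 2 WT and 2 Nkx2-1cKO samples each, and values within each slide are given beside those of each probe of the 6 genes. WT replicate 4 also stood apart, with more signal from mesenchyme markers than the other arrays, and without it Maf, Satb1 and Zeb2 were all called. All 12 tested MGE regulators, Lhx6, Lhx8 and the Dlx genes among them, were well above background on all 8 arrays, as were all 9 probes of the 6 factors. Because whole MGE was measured, fewer cells of a type and less RNA per cell cannot be told apart.

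Loss of Nkx2-1 went with lower RNA of Maf, Satb1 and Zeb2 in the MGE, whereas Zeb1, Npas1 and Npas3 did not pass the threshold. Thus 3 of the 6 genes were called, all of them lower, against 0.614% of all tested probes called lower, 0.422% called higher and 1.04% called in either direction. The count was 2 without WT replicate 2 or 3, without Nkx2-1cKO replicate 1 or 3 or without a variance trend, and 1, Maf alone, without Nkx2-1cKO replicate 4 or when arrays were centred on their median. Maf had by far the largest change of the 6, falling to 17.5% of the WT level, while Satb1 kept 65.3% and Zeb2 70.4%. By probe, 4 of 9 were called lower and 0 higher, to be read against the same 0.614% and 0.422% of all tested probes. On 5 of the 9 probes the groups were fully separate with the mutant lower, against 4.12% of all tested probes. On 0 of 9 they were separate with the mutant higher, against 2.33%. All these shares are over probes, also where the count is of genes. The 6 genes were chosen with earlier results of these data known. The median log2 fold change of the 6 genes was -0.45. It was -0.002 for all 14447 tested genes by their brightest probe, and -0.04 for all tested probes.

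**Figure D1:**
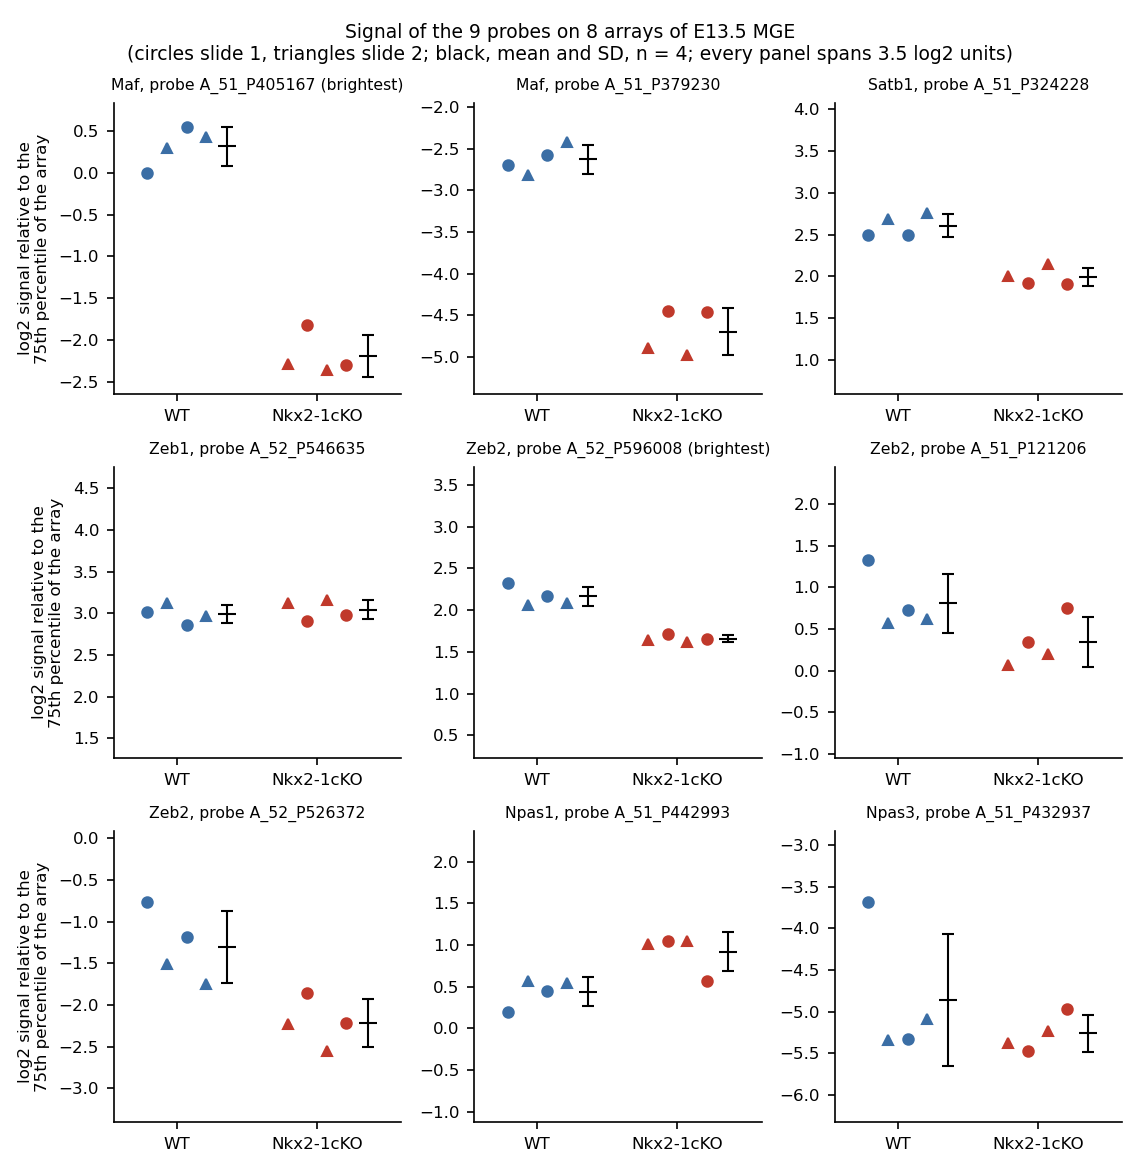
Log2 signal relative to the 75th percentile of the array for each of the 9 probes, with 1 point per array (circles slide 1, triangles slide 2) and the mean and SD of each group of 4 in black. The groups are far apart on both Maf probes, close but separate on the Satb1 probe and the brightest Zeb2 probe, and mixed on Zeb1 and Npas3, where WT replicate 1 reads -3.68.

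Maf was measured by 2 probes that both fell. On the brighter probe (A_51_P405167) the WT arrays read 0.00, 0.30, 0.55 and 0.43, and the Nkx2-1cKO arrays read -2.29, -1.82, -2.36 and -2.30. The groups were far apart, with the highest mutant array still well under the lowest WT array. The level went from 0.32 ± 0.23 to -2.19 ± 0.25 (SD, n = 4 each), which is -2.51 as a log2 fold change (adjusted p = 3.97e-05 by limma, standard error 0.15). Among the 31280 tested probes it ranked 25 from the most negative fold change. Within slide 1 the difference was -2.34 and within slide 2 it was -2.69, and it was -2.62 without WT replicate 1.

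The dimmer Maf probe (A_51_P379230) gave -2.70, -2.82, -2.58 and -2.42 in WT and -4.89, -4.45, -4.98 and -4.46 in the Nkx2-1cKO. Again no mutant array reached a WT array, and the mutant arrays of slide 1 were the higher pair. The log2 fold change was -2.06 (standard error 0.17, adjusted p = 0.0003, limma), leaving 23.9% of the WT level, and it was -1.81 within slide 1 and -2.31 within slide 2. After another background correction, normexp on the median signal, the dimmer probe read -0.82 and lost its call (adjusted p = 0.861, limma), whereas the brighter probe fell by 2.10 and kept it (adjusted p = 1.12e-07, limma). As intensities before scaling, the dimmer probe read 341 to 459 in WT and 64.4 to 115 in the Nkx2-1cKO.

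Satb1 was measured by 1 probe, in the brightest 20% of those tested. Its WT arrays read 2.49, 2.69, 2.49 and 2.75 and its Nkx2-1cKO arrays 2.001, 1.91, 2.14 and 1.91. The groups did not overlap, and Nkx2-1cKO replicate 3 was the mutant array nearest to WT. The level went from 2.61 ± 0.13 to 1.99 ± 0.11 (SD, n = 4 each), which is -0.61 as a log2 fold change (adjusted p = 0.0118 by limma, standard error 0.09). Slide 1 alone gave -0.58 and slide 2 alone -0.65, and with slide as a block the adjusted p was 0.0012 (limma). The call was lost when arrays were centred on their median (log2 fold change -0.49, adjusted p = 0.477, limma), without WT replicate 2 (adjusted p = 0.0542) or without Nkx2-1cKO replicate 4 (adjusted p = 0.0508). Without WT replicate 1 it was kept (adjusted p = 0.0187, limma).

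Zeb2 was measured by 3 probes, all with a lower mean in the Nkx2-1cKO, of which the brightest was called. On that probe (A_52_P596008) the WT arrays read 2.32, 2.07, 2.17 and 2.09, and the Nkx2-1cKO arrays read 1.64, 1.71, 1.62 and 1.66. The mutant arrays lay close together and all were below WT. The level went from 2.16 ± 0.12 to 1.66 ± 0.04 (SD, n = 4 each), which is -0.51 as a log2 fold change (adjusted p = 0.0161 by limma, standard error 0.08). Slide 1 alone gave -0.56 and slide 2 alone -0.45. The call was lost with centring on the median (log2 fold change -0.39, adjusted p = 0.271, limma), without a variance trend (adjusted p = 0.0501) and with the mean of the 3 probes (log2 fold change -0.63, adjusted p = 0.117). It was also lost without WT replicate 3 or without Nkx2-1cKO replicate 1, 3 or 4 (adjusted p = 0.0568 to 0.066, limma), and kept without WT replicate 1 (adjusted p = 0.0295, limma).

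The other Zeb2 probes varied more between arrays of a group. Probe A_51_P121206 read 1.33, 0.57, 0.73 and 0.62 in WT and 0.06, 0.34, 0.20 and 0.75 in the Nkx2-1cKO. Here the groups overlapped, because Nkx2-1cKO replicate 4 was above WT replicates 2, 3 and 4. Its log2 fold change was -0.47 (standard error 0.20, adjusted p = 0.536, limma) and -0.30 without WT replicate 1, with -0.48 on slide 1 and -0.46 on slide 2. Probe A_52_P526372 read -0.76, -1.51, -1.18 and -1.75 in WT and -2.23, -1.85, -2.55 and -2.22 in the Nkx2-1cKO. Every mutant array was below WT on this probe, by little between the nearest pair, and the log2 fold change was -0.91 (standard error 0.22, adjusted p = 0.129, limma). Slide 1 alone gave -1.06 and slide 2 alone -0.76. With slide as a block this probe passed the threshold (adjusted p = 0.0173, limma), the only 1 of 18 alternatives to do so. Without WT replicate 1 its log2 fold change was -0.73 (adjusted p = 0.196, limma). On WT replicate 1 all 3 Zeb2 probes gave the highest of the 4 WT values.

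**Figure D2:**
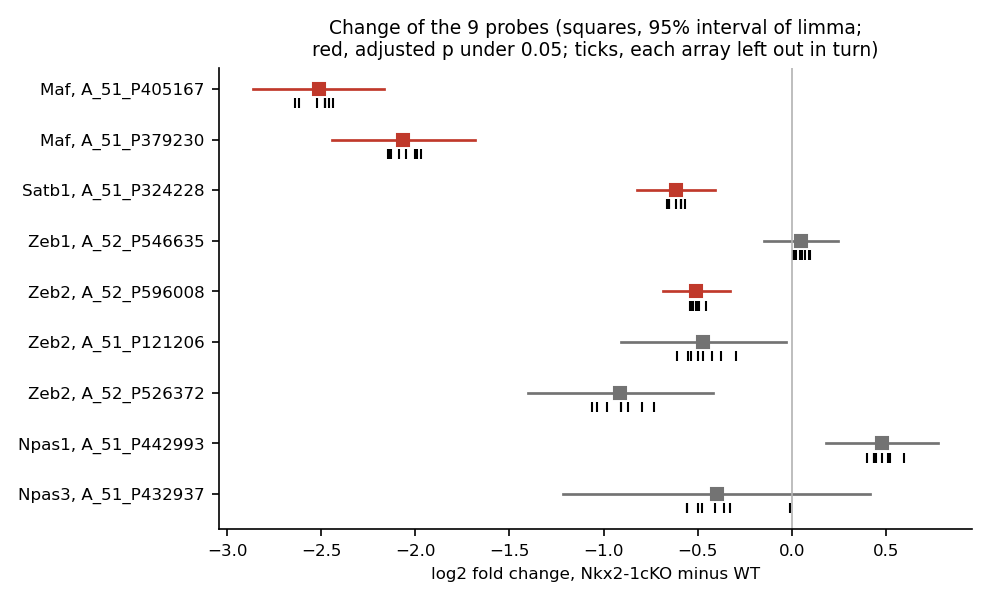
Log2 fold change, Nkx2-1cKO minus WT, of each probe as a square with its 95% interval from limma, red where the adjusted p was under 0.05, and the values with each array left out in turn as black ticks. The Maf intervals, from -2.86 to -2.17 on the brighter probe, lie far from those of Satb1 (-0.82 to -0.41) and the brightest Zeb2 probe (-0.69 to -0.33), and the interval of Zeb1 spans 0.

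Zeb1 gave 3.01, 3.13, 2.86 and 2.97 in WT and 3.12, 2.91, 3.16 and 2.98 in the Nkx2-1cKO. The arrays of the groups were interleaved, with the 2 highest mutant arrays both on slide 2. The log2 fold change was 0.05 (standard error 0.09, adjusted p = 0.854, limma), with a 95% interval of -0.15 to 0.25, and its sign turned under quantile normalization and normexp. Slide 1 alone gave 0.01 and slide 2 alone 0.09. The 95% interval of Zeb1 does not overlap that of the brightest Zeb2 probe or of Zeb2 probe A_52_P526372 (-1.40 to -0.42). It does overlap that of Zeb2 probe A_51_P121206 (-0.91 to -0.03).

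Npas1 read 0.20, 0.57, 0.45 and 0.54 in WT and 1.02, 1.04, 1.05 and 0.57 in the Nkx2-1cKO. Replicates 1, 2 and 3 of the mutant were above every WT array, whereas replicate 4 lay at the level of WT replicate 2. The level went from 0.44 ± 0.17 to 0.92 ± 0.23 (SD, n = 4 each), a rise of 0.48 in the mean that did not pass the threshold (standard error 0.13, adjusted p = 0.227, limma). Slide 1 alone gave 0.48 and slide 2 alone 0.47. Without Nkx2-1cKO replicate 4 the log2 fold change was 0.59 (adjusted p = 0.0623, limma), the lowest adjusted p with any 1 array left out. Without WT replicate 1 it was 0.40 (adjusted p = 0.403, limma).

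Npas3 was in the dimmest 20% of the tested probes. It read -3.68, -5.34, -5.33 and -5.09 in WT and -5.37, -5.47, -5.23 and -4.96 in the Nkx2-1cKO, or 200.2, 59.6, 62.2 and 72.2 against 57.5, 56.8, 54.0 and 75.8 as intensities. The other 7 arrays lay within a narrow band and WT replicate 1 stood alone above them. The log2 fold change was -0.40 with all arrays (standard error 0.36, adjusted p = 0.72, limma) and -0.01 without WT replicate 1 (standard error 0.19). Slide 1, which holds WT replicate 1, gave -0.71 and slide 2 gave -0.09. After normexp its sign turned, to 0.43. A probe this dim limits what could be detected for Npas3.

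Zeb2 was also set against Zeb1, and Npas1 against Npas3, on the same array, a choice made after seeing the data, among 4 such ratios computed. The ratio of Zeb2 to Zeb1 was lower on every mutant array than on every WT array, by 0.56 on average (log2; exact permutation test, two-sided, p = 0.0286, which is the lower limit for 4 arrays against 4, and 0.0571 after Benjamini-Hochberg adjustment over the 4 ratios). Without WT replicate 1 the difference was -0.51. For Npas1 over Npas3 the ratio differed by 0.88 with overlapping groups (exact permutation p = 0.114, adjusted 0.114), and by 0.41 without WT replicate 1. Neither ratio passed 0.05 after adjustment, which could happen with this number of arrays only if at least 3 of the 4 reached the smallest p.

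**Figure D3:**
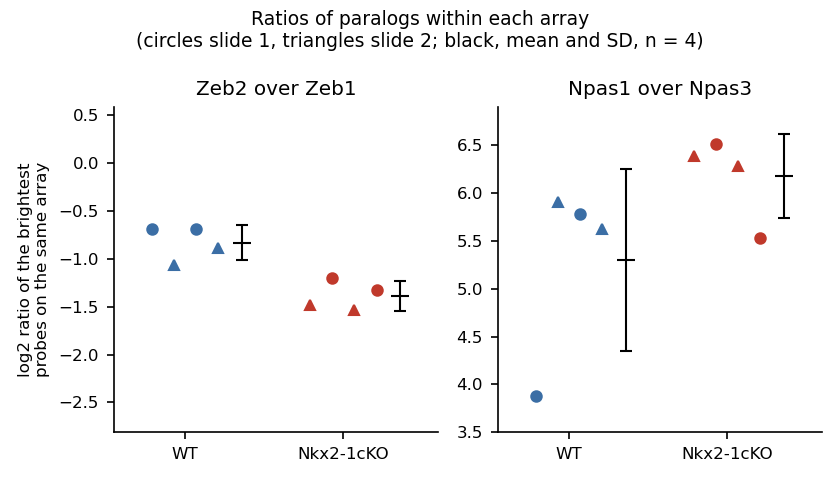
Log2 ratio of the brightest probes of Zeb2 and Zeb1, and of Npas1 and Npas3, on the same array, with 1 point per array (circles slide 1, triangles slide 2) and the mean and SD of each group of 4 in black. Panels cover equal spans. Groups are separate for Zeb2 over Zeb1 and overlap for Npas1 over Npas3, and only the change between groups can be read, since different probes have no common level scale.

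Among the 31280 probes, those with a symbol whose 8 centred values lay nearest to each called factor were found by root mean square distance on the log2 scale, over 8 arrays that include the difference between the groups. For Maf these were Npy2r (distance 0.20, log2 fold change -2.44), Dgkg (0.20, -2.21) and the potassium channel gene Kcnc2 (0.26, -2.12). For Satb1 they included Hspb8 (0.07, -0.58) and Eva1c (0.08, -0.65). Those nearest to Zeb2 were the RNA-binding protein gene Elavl2 (0.06, -0.56), Tox (0.06, -0.62) and Trp53inp1 (0.07, -0.53). All of the genes named here passed the threshold except Hspb8 (adjusted p = 0.171, limma).

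No relative of the factors passed the threshold. Of 6 tested genes of the MAF family and its BACH partners 0 were called by limma, 2 had an unadjusted p under 0.05, and their median log2 fold change was -0.02. With slide as a block 1 of the 6 was called lower. Of 7 relatives and corepressors of the SATB and ZEB factors 0 were called by limma and 0 had an unadjusted p under 0.05, with a median of 0.03. Of 11 genes of the basic helix-loop-helix PAS family and its partners 0 were called by limma and 1 had an unadjusted p under 0.05, with a median of -0.11.

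Other genes of the MGE lineage were lower as well as Maf, Satb1 and Zeb2. Of 12 MGE regulators 5 were called lower and 0 higher, with a median log2 fold change of -0.34. This count and median include Nkx2-1, the targeted gene, whose fall was set by the design. The others called included the LIM homeobox genes Lhx6 (-4.20) and Lhx8 (-3.67), and Sox6 (-1.64), which acts downstream of Lhx6. Maf lay between Lhx8 and Sox6 in the size of its change. Of 21 tested interneuron maturation genes 8 were called lower and 1 higher, with a median of -0.20. Among the lower ones were the neuropeptide genes Npy (-3.53) and Sst (-1.73), the channel gene Kcnc2, Nxph1 (-2.02) and the synaptic organiser Elfn1 (-1.90). The others were the receptor genes Erbb4 (-1.65) and Ackr3 (-0.85), and Calb1 (-1.10). The Erbb4 probe was dim, and only 7 arrays marked it as well above background. Its value on Nkx2-1cKO replicate 1, -7.08, lay under the lowest value so marked on that array (-6.75). The other, dimmer Erbb4 probe changed by -1.78 without overlap of the groups but was not called (adjusted p = 0.227, limma). Tac1, which encodes a tachykinin precursor, rose by 1.03, but this call was lost in 6 of the 8 settings that left out an array (all but those without WT replicate 3 or Nkx2-1cKO replicate 4), with centring on the median and without a variance trend. With each array left out in turn the counts of lower genes were 5 to 6 for the MGE regulators and 7 to 8 for the maturation genes.

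**Figure D4:**
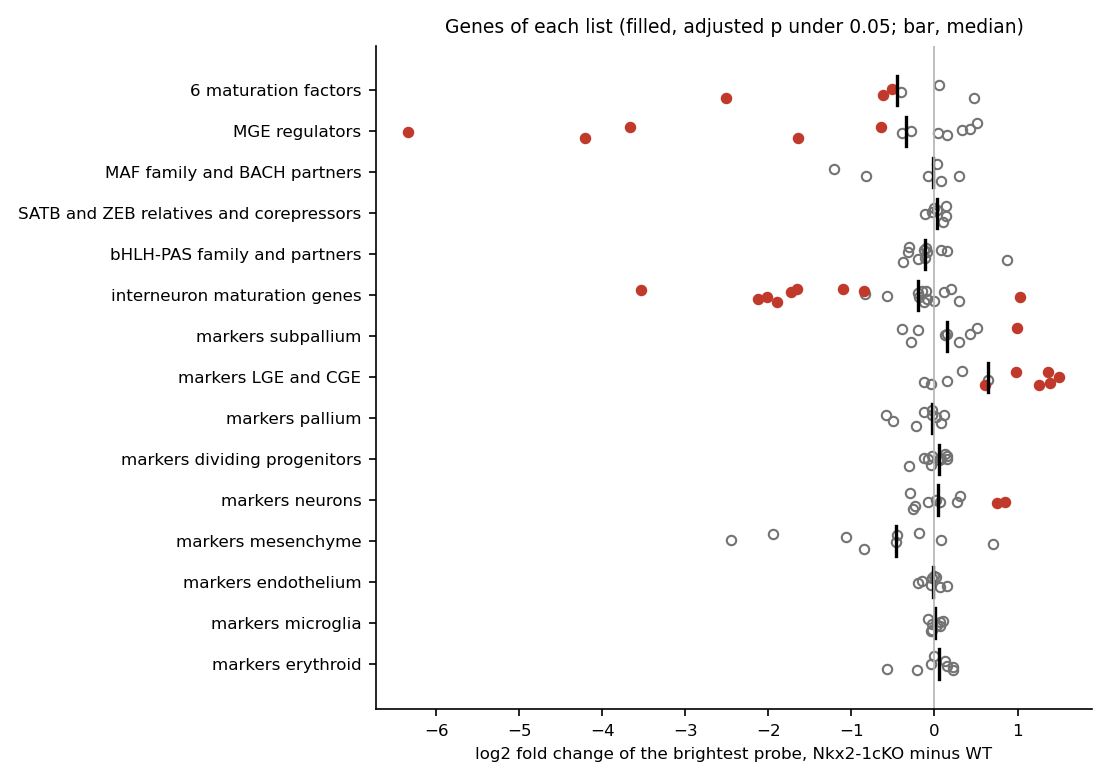
Log2 fold change, Nkx2-1cKO minus WT, of the brightest probe of each gene in each list, filled red where the adjusted p was under 0.05, with the median of the list as a bar. Maf lies among the strongly lowered MGE regulators and maturation genes, Satb1 and Zeb2 lie nearer 0, and the lists of the factors' own families hold no filled point.

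Some markers of other cells moved with the mutant group. Of 11 tested markers of the LGE and CGE, the neighbouring eminences, 6 were called higher and 0 lower, with 4 to 5 higher after leaving out any 1 array and 4 with centring on the median, with quantile normalization or without a variance trend. These 6 were Zfp503 (1.39), Ebf1 (1.37), Rarb (1.51), Meis2 (0.98), Isl1 (1.26) and Foxp2 (0.60). The 5 not called were Foxp1 (0.64), Sp8 (0.34), Pax6 (0.15), Prox1 (-0.04) and Nr2f2 (-0.13). WT replicate 1 was the lowest WT array for Meis2 (4.10 against 4.86 to 5.05) and Rarb (-1.02 against -0.28 to 0.02). Both changes thus rest in part on it, and without this array 5 markers of the list were called higher. The sum of the linear signals of the 11 probes, each relative to the 75th percentile, was 43.0 to 57.4 in WT and 81.3 to 90.3 in the Nkx2-1cKO, and most of this shift lay in the bright Meis2 probe. Without Meis2 the sum was 20.1 to 25.8 in WT and 28.7 to 35.2 in the Nkx2-1cKO. Such sums weight bright probes most, and the part of this shift in the lower Maf, Satb1 and Zeb2 was not tested. Of 9 subpallium markers only Six3 was called, as higher (0.99), while 3 had a lower mean and the list median was 0.15. Of 10 neuron markers Nefl (0.85) and Nefm (0.75) were called higher and 0 lower, while 4 had a lower mean and the median was 0.04. The neuron count of 2 fell to 1 without WT replicate 1, without Nkx2-1cKO replicate 2, 3 or 4 or without a variance trend, and to 0 without WT replicate 3, without Nkx2-1cKO replicate 1 or with centring on the median. The markers of pallium, dividing progenitors, endothelium, microglia, mesenchyme and erythroid cells held 0 called genes by limma, with 4 of their 53 genes at an unadjusted p under 0.05. Mesenchyme markers summed to 8.24 on WT replicate 4, to 1.92 to 2.46 on the other WT arrays and to 1.83 to 2.49 in the Nkx2-1cKO, and those of dividing progenitors to 176 to 220.0 and 170 to 206.

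Since Satb1 and Zeb2 fell together, the 250 bases before their annotated starts were read for short motifs, on both strands, in the RefSeq promoter table of GRCm38.p6. This table holds 5 starts of Satb1, 4 of Zeb2 and 1 each of Npas1 and Npas3, but 0 of Maf and 0 of Zeb1. Some starts of Satb1 and of Zeb2 lie so close that their windows overlap, so the windows are not independent sequences. CACTTNA, the core recognised by NKX2-1, was in 0 of these 11 windows and in 10.1% of all 32851 windows. The LIM homeobox core TAATTA (4.8% of all) and the MAF core TGCTGA (16.1% of all) were also in 0 of the 11. CACCTG, the E-box that ZEB proteins bind, was in 17.2% of all windows and in 1 of the 11, at a start of Satb1 on the minus strand. CANNTG, the general E-box, which includes CACCTG, was in 66.2% of all windows, in 2 of the 5 Satb1 windows, in the Npas3 window and in 0 of the 4 Zeb2 windows. The Satb1 window with the match, chr17:51826589-51826838, and the Zeb2 window of the outermost start, chr2:45117443-45117692, also on the minus strand, are printed 5′ to 3′ to show the match and a window without one. Capitals mark CACCTG.
Satb1: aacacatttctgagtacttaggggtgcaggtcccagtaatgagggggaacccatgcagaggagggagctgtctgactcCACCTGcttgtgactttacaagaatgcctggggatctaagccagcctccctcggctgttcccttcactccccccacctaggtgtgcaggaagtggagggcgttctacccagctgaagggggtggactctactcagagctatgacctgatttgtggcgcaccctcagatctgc
Zeb2: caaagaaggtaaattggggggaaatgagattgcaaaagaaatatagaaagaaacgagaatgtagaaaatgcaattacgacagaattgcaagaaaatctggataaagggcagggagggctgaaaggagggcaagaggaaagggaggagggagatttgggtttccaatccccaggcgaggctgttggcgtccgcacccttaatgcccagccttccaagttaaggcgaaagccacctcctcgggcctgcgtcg
These matches are letters in a window, and no binding was measured on the arrays.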

How the data were processed

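Total RNA from microdissected E13.5 MGE was amplified, labelled with Cy3 and hybridised to 1-colour Agilent whole mouse genome arrays. The authors deposited Feature Extraction output (version 10.1 in the submitters' processing notes, 10.7.3.1 in the file headers) with 1 intensity per spot, background-subtracted within the array and not scaled between arrays. Saturation was flagged on 0 spots.

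After removal of control spots and flagged outliers, intensities were put on the log2 scale, centred on the 75th percentile of each array and averaged over spots of a probe. Probes were named by accession through a RefSeq gene table of GRCm38.p6, and 24844 of 41174 matched a symbol. The array design refers to another build, so no gene coordinates were taken. Tests covered 31280 probes that 4 or more of the 8 arrays marked as well above background (71.1% to 79.5% of probes per array, 50 missing values), with lmFit and eBayes with a variance trend (limma 3.58.1, R 4.3.3), for all WT against all Nkx2-1cKO arrays, at a Benjamini-Hochberg adjusted p under 0.05. The procedure was tested on simulated data. The number of arrays limits the precision. Exact two-sided permutation tests over arrays cannot go below 0.0286.

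Named were all probes of the 6 genes, called genes of the lists, all tested LGE and CGE markers, Nkx2-1 and the 3 nearest genes of each called factor. Some genes that this rule covers, and ratios that use them, are not reported here. The 6 genes and the lists were chosen with earlier results of these data known. Nrl, Bach2, Hdac1, Pvalb and Htr3a had no tested probe. Other settings tried were centring on the median, quantile normalization, normexp (offset 50) on the median signal, no filter or one on the mean signal, a block for slide or for replicate number, array weights, no variance trend, averaging the probes of a gene and leaving out each array. Centring without WT replicate 1, the ratios between relatives, list counts under the alternatives and marker sums without Meis2 or WT replicate 4 were added after seeing the data. Deviations from the group means correlated at -0.481 to -0.194 between arrays of equal replicate number, so these numbers were not treated as pairs.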

Additional observations from a re-analysis of the deposited data

Results flagged for a closer look

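Some arrays stood apart from the other 3 of their group by Dixon's gap test, which flags about 1 group in 20 by chance, or 4.1 of the 82 groups examined here, and marked 5. On the brighter Maf probe Nkx2-1cKO replicate 2 read -1.82, against -2.36 to -2.29 on the other mutant arrays. On the Npas1 probe Nkx2-1cKO replicate 4 read 0.57, against 1.02 to 1.05. On the Npas3 probe WT replicate 1 read -3.68, against -5.34 to -5.09. On the Ackr3 probe Nkx2-1cKO replicate 1 read 2.14, against 1.82 to 1.87. On the Trp53inp1 probe, the third nearest in pattern to Zeb2, WT replicate 1 read 2.56, against 2.21 to 2.25. All values are log2 relative to the 75th percentile of the array.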

How the results depend on the processing

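The brighter Maf probe was lower and past the threshold under all 19 alternatives, with log2 fold changes of -2.64 to -2.10, and 17 of 18 kept the call on the dimmer one. Satb1 was lower under all 19 and past the threshold under 14, and Zeb2 was lower under all 19 and past it under 10. Leaving out each array in turn gave -0.66 to -0.57 for Satb1 and -0.54 to -0.45 for Zeb2, and the calls lost are named beside those genes. Centring on the median gave -0.49 for Satb1 and -0.39 for Zeb2, and -0.62 and -0.42 with WT replicate 1 also left out (adjusted p = 0.155 and 0.17, limma), none of them past the threshold. Zeb2 at -0.51 missed it without a variance trend (adjusted p = 0.0501) and at -0.63 with its probes averaged (adjusted p = 0.117). With the replicate number as a block the log2 fold changes stayed at -0.61 for Satb1 (adjusted p = 0.196, limma) and -0.51 for Zeb2 (adjusted p = 0.229, limma), Maf kept its call, and 73 probes were called in all, 65 lower and 8 higher. In that setting 1 of the 6 factors, 2 of the LGE and CGE markers and 0 of the neuron markers were called. Zeb1 turned to -0.0047 under quantile normalization and -0.078 under normexp. Npas3 turned to 0.43 under normexp and to 0.026 with centring and WT replicate 1 left out. Neither gene was past the threshold under any alternative, nor was Npas1. The cause of these changes was not tested.

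Over all probes, 192 were lower and 132 higher. Lower probes numbered 115 with centring on the median, 90 with normexp and 291 with array weights. Higher probes numbered 68 with normexp, 209 with slide as a block, 87 without a variance trend and 85 with centring and WT replicate 1 left out, and 65 to 118 with each array left out. The median log2 fold change of all probes was 0.08 with centring and 0.18 with normexp, against -0.04 with the 75th percentile. Relative to that median, Satb1 was at -0.57 in the first, -0.84 in the second and -0.57 in the last, and Zeb2 at -0.47, -0.75 and -0.47. Dim probes, the Npas3 probe among them, limit what the arrays can show.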
